A study of Homo sapiens with 24 samples.

Results

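Poly(A) RNA was sequenced from the PM line carrying CHD1 hairpin B (4 libraries) and from the same line carrying CHD1 hairpin A (4 libraries), and these 8 of the 24 libraries of the series were compared. The members were chosen by their labels: every library of PM with a hairpin against CHD1. Hairpin B was set against hairpin A because earlier results of these data had shown like CHD1 levels and unlike MYC levels. MCF10A is an established, non-tumorigenic line of human breast epithelium; PM is its MYC-transformed derivative and PE its non-transformed counterpart. Both are single lines, so nothing here samples variation between donors or tumours. The other groups used below were PM with a hairpin against GFP, PE with CHD1 hairpin B, PE with CHD1 hairpin A and PE with the GFP hairpin, with 4 libraries each. Every culture, GFP controls included, received doxycycline at 50 ng/ml for 72 h and grew in medium with horse serum, EGF, hydrocortisone, cholera toxin and insulin. Titles name biological replicates but give no detail of separate cultures, and a p-value here measures no more than the spread among libraries of a group.

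CHD1 is an ATP-dependent chromatin remodeller that binds histone H3 methylated at lysine 4 and spaces nucleosomes over transcribed genes. MYC is a transcription factor that binds with MAX to E-box DNA and is best known for raising genes of ribosome biogenesis, translation and metabolism. A short hairpin RNA is processed by the cell's own microRNA machinery into a small RNA that lowers a matching transcript, and each hairpin can also lower other transcripts with a partial match. The hairpins' sequences were not used here.

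CHD1, the targeted gene, stood at 33.8, 28.6, 22.2 and 33.3 CPM (the count relative to library size, after TMM scaling) in the hairpin B libraries, against 30.6, 27.6, 31.7 and 34.3 CPM in the hairpin A libraries. With the GFP hairpin it averaged 89.97 ± 5.18 CPM (SD, n = 4). The hairpin groups overlapped and both lay below every GFP library. Because they overlapped, these levels cannot check which CHD1 hairpin a library carried. MYC stood at 386, 399, 378 and 406 CPM with hairpin B and at 569, 587, 577 and 524 CPM with hairpin A, with a mean of 518 ± 27.4 CPM under the GFP hairpin. All 4 hairpin B libraries lay below all 4 hairpin A libraries, with a log2 difference of -0.52. In PE the same gene averaged 275 ± 24 CPM with hairpin B, 258 ± 8.3 CPM with hairpin A and 275 ± 17.7 CPM with the GFP hairpin, values that lie close together. CHD1 and MYC defined the comparison, so their levels are a description without a test. Counts per gene do not separate a transgene's MYC from the cell's own.

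**Figure D1:**
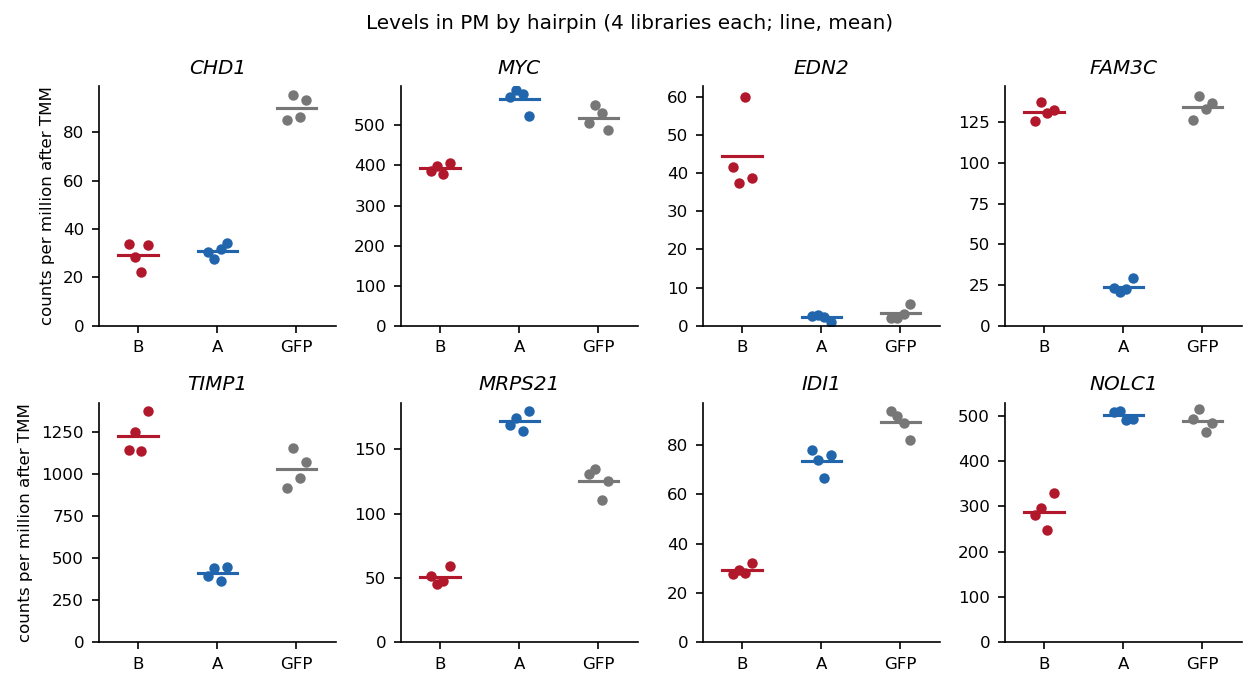
Level in CPM of 8 genes in each PM library, in the order hairpin B, hairpin A and GFP hairpin; points are libraries and horizontal lines are group means. CHD1 is alike under both CHD1 hairpins, MYC is lower with hairpin B, EDN2, FAM3C and TIMP1 are higher with hairpin B, and MRPS21, IDI1 and NOLC1 are lower.

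Of 20820 genes tested with edgeR's quasi-likelihood test at a Benjamini-Hochberg adjusted p under 0.05, 5468 (26.3%) differed between hairpin B and hairpin A in PM. Of these, 2651 rose (12.7%) and 2817 fell (13.5%). Changes of at least 2-fold were mostly rises: 822 genes (3.95%) rose and 209 (1%) fell by that much. All 4 hairpin B libraries lay above all 4 hairpin A libraries for 2664 genes (12.8%) and below them for 2799 (13.4%). Scaled by library sizes alone, 3192 genes rose and 2257 fell, so that 58.6% of calls were rises, against 48.5% with TMM. The median log2 change over all genes tested was 0.03. Total counts ran from 30.6 to 93.3 M in the 8 libraries. Hairpin B replicate 3 had a count for 33137 genes, against 21732 to 24764 in the other hairpin B libraries and 19514 to 23916 in the hairpin A libraries. Hairpin A replicate 4 had the highest share of counts on the mitochondrial genome, 7.07%. The epithelial label was checked by keratins: KRT5 averaged 1317 ± 149.7 CPM with hairpin B and 961 ± 23 CPM with hairpin A, while KRT14 stood near 1.18 CPM with hairpin B and 1.28 CPM with hairpin A, so that this defining basal keratin was nearly absent. In bulk RNA, fewer cells of a type and less RNA per cell cannot be told apart.

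The 14 largest rises among well-measured protein-coding genes had log2 changes of 2.55 to 4.31. EDN2, the vasoconstrictor peptide endothelin-2 (GRCh38.p14 chr1:41478775-41484683), stood at 41.5, 37.3, 59.8 and 38.8 CPM with hairpin B and at 2.56, 2.88, 2.27 and 1.11 CPM with hairpin A. Its libraries were far apart, and its log2 change was 4.31 ± 0.47 (SE), adjusted p = 1.1e-06. In PM with the GFP hairpin EDN2 averaged 3.27 ± 1.73 CPM, near its hairpin A level. MUC13, a transmembrane mucin, stood at 8.17, 8.66, 11.8 and 4.49 CPM with hairpin B and at 0.262, 0.615, 0.604 and 0.717 CPM with hairpin A, with a log2 change of 3.89 ± 0.51 (SE), adjusted p = 1.4e-06. GALNT15, an enzyme that starts mucin-type O-glycans, rose by 3.86 on the log2 scale to a mean of 7.42 CPM with hairpin B, against 0.453 CPM with hairpin A. TNFAIP6, a hyaluronan-binding protein induced in inflammation, rose by 3.45. It averaged 5.22 CPM with hairpin B, 0.577 CPM with hairpin A and 4.86 CPM with the GFP hairpin. GALNT15 averaged 3.97 CPM with the GFP hairpin, so for both genes hairpin A lay below GFP. The Notch receptor NOTCH3 stood at 7.13, 3.71, 5.84 and 6.78 CPM with hairpin B and at 0.885, 0.492, 0.959 and 0.651 CPM with hairpin A, with a log2 change of 2.96 ± 0.29 (SE), adjusted p = 1.6e-09. With the GFP hairpin NOTCH3 averaged 0.827 CPM, near its hairpin A level. NRARP, a Notch target that feeds back on the pathway, moved the other way. It stood at 5.3, 5.68, 5.22 and 5.32 CPM with hairpin B and at 16, 15.8, 18.5 and 12.6 CPM with hairpin A, with a log2 change of -1.55 ± 0.16 (SE), adjusted p = 4.4e-09.

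ALDH3A1, an aldehyde dehydrogenase, was the most abundant of the 14 rises. It stood at 78.2, 94.8, 57.5 and 42.1 CPM with hairpin B and at 12.4, 14.2, 5.87 and 11.8 CPM with hairpin A, and its log2 change was 2.64 ± 0.30 (SE), adjusted p = 1.7e-06. ALDH3A1 averaged 5.23 ± 0.928 CPM in the GFP libraries, below both hairpins. The others were DCN (log2 3.24), the matrix proteoglycan decorin, ACACB (2.70), the acetyl-CoA carboxylase of mitochondria, PRODH (2.70), the proline dehydrogenase induced by p53, HDAC5 (2.63), a class II histone deacetylase, TNFRSF14 (2.62), a receptor of the TNF family, ATP8B2 (2.60), a lipid flippase subunit, TRIML2 (2.56) and GRAMD1B (2.55), a sterol transfer protein. HDAC5 averaged 5.51 CPM with hairpin B, 0.870 CPM with hairpin A and 2.54 CPM with the GFP hairpin. TNFRSF14 averaged 0.936 CPM with the GFP hairpin, near its hairpin A level of 0.980 CPM. GRAMD1B stood at 11.4, 11.3, 13.2 and 6.99 CPM with hairpin B and at 1.28, 2.11, 1.56 and 2.44 CPM with hairpin A, and averaged 4.67 CPM with the GFP hairpin. Its change in PE was 0.39 ± 0.18 (SE), adjusted p = 0.15, and the difference between the lines was 2.16 ± 0.27 (SE), adjusted p = 2.1e-06. Without hairpin B replicate 3 and hairpin A replicate 4 together, PRODH did not pass in PM (adjusted p = 0.061). Of the 14 rises, EDN2, GALNT15, NOTCH3, ACACB, PRODH, HDAC5, TNFRSF14, ATP8B2 and TRIML2 also rose in PE at an adjusted p under 0.05. MUC13, TNFAIP6, DCN, ALDH3A1 and GRAMD1B did not pass there. The log2 change of EDN2 in PE was 2.73 ± 0.42 (SE), adjusted p = 1.3e-04.

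The 14 largest falls had log2 changes of -2.96 to -1.55. PRR15L stood at 1.16, 0.539, 1.16 and 1.13 CPM with hairpin B and at 7.08, 7.52, 8.44 and 8.5 CPM with hairpin A, and its log2 change was -2.96 ± 0.48 (SE), adjusted p = 1.7e-05. The GFP libraries averaged 1.37 ± 0.434 CPM of PRR15L, near hairpin B. ENTPD2, an ectonucleotidase that cleaves extracellular ATP, stood at 4.64, 2.00, 3.65 and 3.09 CPM with hairpin B and at 11.4, 12, 14 and 17.6 CPM with hairpin A, a log2 change of -2.02 ± 0.25 (SE), adjusted p = 2.2e-07. GJB2, a connexin of gap junctions, fell by 1.97 on the log2 scale to a mean of 1.69 ± 0.529 CPM with hairpin B, against 6.72 ± 1.44 CPM with hairpin A (SD, n = 4 each). CNTNAP2, a neurexin-family adhesion protein, changed by -1.94 ± 0.38 (SE), adjusted p = 6.5e-04 in PM and by -4.58 ± 0.62 (SE), adjusted p = 2.4e-05 in PE. SLC25A23, a calcium-regulated ATP-Mg and phosphate carrier of mitochondria, stood at 13.3, 9.26, 10.1 and 19.2 CPM with hairpin B and at 44.4, 41.2, 44.3 and 46 CPM with hairpin A. Its groups were widely apart, with a log2 change of -1.76 ± 0.16 (SE), adjusted p = 4.9e-09.

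Among the remaining falls, BMP6 (log2 -1.78) is a bone morphogenetic protein, DUSP8 (-1.72) is a phosphatase of JNK and p38 kinases, RGS16 (-1.61) speeds the shut-off of G proteins, and SLC16A9 (-1.56) is a monocarboxylate transporter. SLCO5A1 (-1.69) is an organic anion transporter family member, and it did not pass without hairpin B replicate 3 and hairpin A replicate 4 together (adjusted p = 0.053). HBA1 (-1.55), an alpha-globin gene, has a near-identical copy in HBA2, so its value is uncertain. RGS16 stood at 8.82, 8.05, 10.4 and 12.4 CPM with hairpin B and at 26.8, 28.8, 34.7 and 30.7 CPM with hairpin A. SLC16A9 stood at 8.71, 6.94, 8.63 and 6.51 CPM with hairpin B and at 23.5, 25.8, 22.9 and 19.1 CPM with hairpin A. For SLC16A9 the GFP libraries averaged 12.2 ± 1.23 CPM, between the CHD1 hairpins.

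A group of genes changed by much the same amount in PE, whose libraries share none with PM. MRPS21, a protein of the small mitochondrial ribosomal subunit (chr1:150293861-150308979), stood at 51.7, 45.7, 47.6 and 59 CPM in PM with hairpin B and at 169, 174, 164 and 179.8 CPM in PM with hairpin A. Its log2 change was -1.75 ± 0.09 (SE), adjusted p = 1.0e-16 in PM and -1.53 ± 0.09 (SE), adjusted p = 1.5e-14 in PE, and no difference between the lines was detected (-0.22 ± 0.12 (SE), adjusted p = 0.37). NR2F6, an orphan nuclear receptor, stood at 37.1, 31.2, 35.8 and 42.4 CPM with hairpin B and at 115, 128, 119.7 and 89.3 CPM with hairpin A. It changed by -1.62 ± 0.10 (SE), adjusted p = 6.3e-14 in PM and by -1.32 ± 0.10 (SE), adjusted p = 1.3e-11 in PE.

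FAM3C, a secreted cytokine-like protein (chr7:121348878-121396396), and MTX2, a subunit of protein import and sorting at the outer mitochondrial membrane, were named after their values were seen. FAM3C stood at 125, 137, 130.4 and 133 CPM with hairpin B and at 23.2, 20.8, 22.9 and 29.5 CPM with hairpin A, and averaged 134 ± 6.26 CPM with the GFP hairpin. It was thus near the GFP level with hairpin B and low with hairpin A. Its log2 change was 2.45 ± 0.09 (SE), adjusted p = 3.6e-20 in PM and 2.26 ± 0.09 (SE), adjusted p = 3.9e-19 in PE. MTX2 stood at 18.2, 18.2, 19 and 21.9 CPM with hairpin B and at 57.6, 58.7, 58.9 and 48.7 CPM with hairpin A, and averaged 53.6 ± 3.57 CPM with the GFP hairpin. Here hairpin A lay near the GFP level and hairpin B was low. The log2 change of MTX2 was -1.54 ± 0.09 (SE), adjusted p = 2.0e-14 in PM and -1.34 ± 0.10 (SE), adjusted p = 1.5e-12 in PE.

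Over all genes, 889 rose with hairpin B against hairpin A in both lines, which was 33.5% of the rises in PM and 57.1% of those in PE. A further 1187 genes fell in both lines, 42.1% of the falls in PM and 62.7% of those in PE. In opposite directions, 68 genes rose in PM and fell in PE, and 37 fell in PM and rose in PE. In PE 3451 genes (16.6%) were called, of which 1558 rose (7.48%) and 1893 fell (9.09%), with 424 rises (2.04%) and 236 falls (1.13%) of at least 2-fold. Across the 11049 genes that averaged 5 CPM or more, the log2 changes in PM and PE had a Pearson r of 0.546 and a Spearman rho of 0.590. This correlation is across genes, which are not independent replicates.

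**Figure D2:**
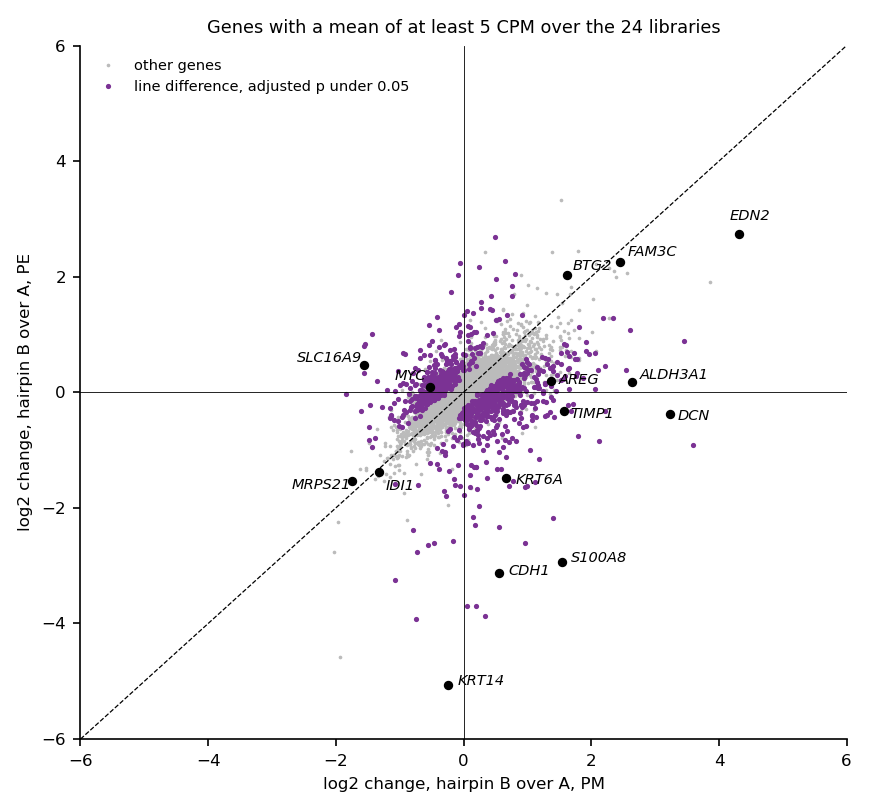
Log2 change of hairpin B over hairpin A in PM (horizontal axis) and in PE (vertical axis), 1 point per gene that averaged 5 CPM or more over 24 libraries; the dashed line marks equal change and purple points are genes whose change differed between the lines. FAM3C, MRPS21 and IDI1 lie near the dashed line, and TIMP1, KRT6A and KRT14 lie off it.

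Partners and targets of MYC were more often lower than higher with hairpin B. Of 12 genes of the MYC and MAX network tested, 4 fell and 0 rose, against 13.5% and 12.7% of all genes. MYC itself, which the comparison was chosen on, is among the 4, so its fall was fixed in advance. Every list below is to be set against these shares in PM, and against 9.09% falls and 7.48% rises in PE. Of protein-coding genes alone, 18.6% fell and 16.5% rose in PM. In the highest of 5 equal groups of these by mean level, 34.1% fell and 15.0% rose. The share of falls in the MYC and MAX network, 33.3%, is near that of this highest group. The lists were not matched for level. For every list given here with 0 members called in one direction in PM by edgeR, the count at an unadjusted p under 0.05 and the counts by the DESeq2 Wald test and limma-voom were also 0, except for cholesterol synthesis and RNA interference, given below. MLX, the partner of the MONDO glucose sensors, stood at 40.5, 43.1, 37.3 and 43 CPM with hairpin B and at 71.1, 75.8, 64.5 and 59.7 CPM with hairpin A, a log2 change of -0.73 ± 0.09 (SE), adjusted p = 7.5e-08. MAX, the obligate partner of MYC, stood at 31.9, 35.1, 31.3 and 41.2 CPM with hairpin B and at 47.5, 53.9, 53.3 and 53.6 CPM with hairpin A, a log2 change of -0.58 ± 0.10 (SE), adjusted p = 1.9e-05. MAX also fell in PE (-0.49 ± 0.10 (SE), adjusted p = 3.4e-04), where MYC levels lay close together. The part of MYC in the level of MAX was not tested.

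Of 29 classical MYC targets tested, 19 fell and 1 rose, against 13.5% and 12.7% of all genes, and the list's median log2 change was -0.27. In PE 7 of these fell and 2 rose, with a median of -0.15. CCND2, the D-type cyclin that drives G1 progression, stood at 21.2, 17.5, 22.1 and 18.3 CPM with hairpin B and at 42.5, 34.9, 43.6 and 42.3 CPM with hairpin A, a log2 change of -1.04 ± 0.16 (SE), adjusted p = 3.7e-06. With the GFP hairpin CCND2 averaged 15.5 ± 2.64 CPM, below the means of both CHD1 hairpins. ODC1, which makes the polyamine putrescine, changed by -0.50 ± 0.12 (SE), adjusted p = 0.0044 in PM and by -0.70 ± 0.12 (SE), adjusted p = 3.7e-04 in PE. In PM it averaged 400 CPM with hairpin B, 564 CPM with hairpin A and 573 CPM with the GFP hairpin. The mitochondrial chaperonin HSPD1 averaged 1329.8 ± 49.9 CPM with hairpin B and 1805 ± 68.2 CPM with hairpin A (SD, n = 4 each), and its log2 change was -0.44 ± 0.06 (SE), adjusted p = 2.2e-06. With the GFP hairpin HSPD1 averaged 1493 ± 123 CPM, between the CHD1 hairpins. The exception was NCL, the nucleolar protein nucleolin. It averaged 1787 ± 109 CPM with hairpin B, 1352 ± 58.4 CPM with hairpin A and 2191 ± 91.1 CPM with the GFP hairpin, and its log2 change was 0.40 ± 0.06 (SE), adjusted p = 1.1e-05 in PM and 0.49 ± 0.06 (SE), adjusted p = 6.2e-07 in PE. CDK4 did not pass in PM (0.08 ± 0.08 (SE), adjusted p = 0.56).

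**Figure D3:**
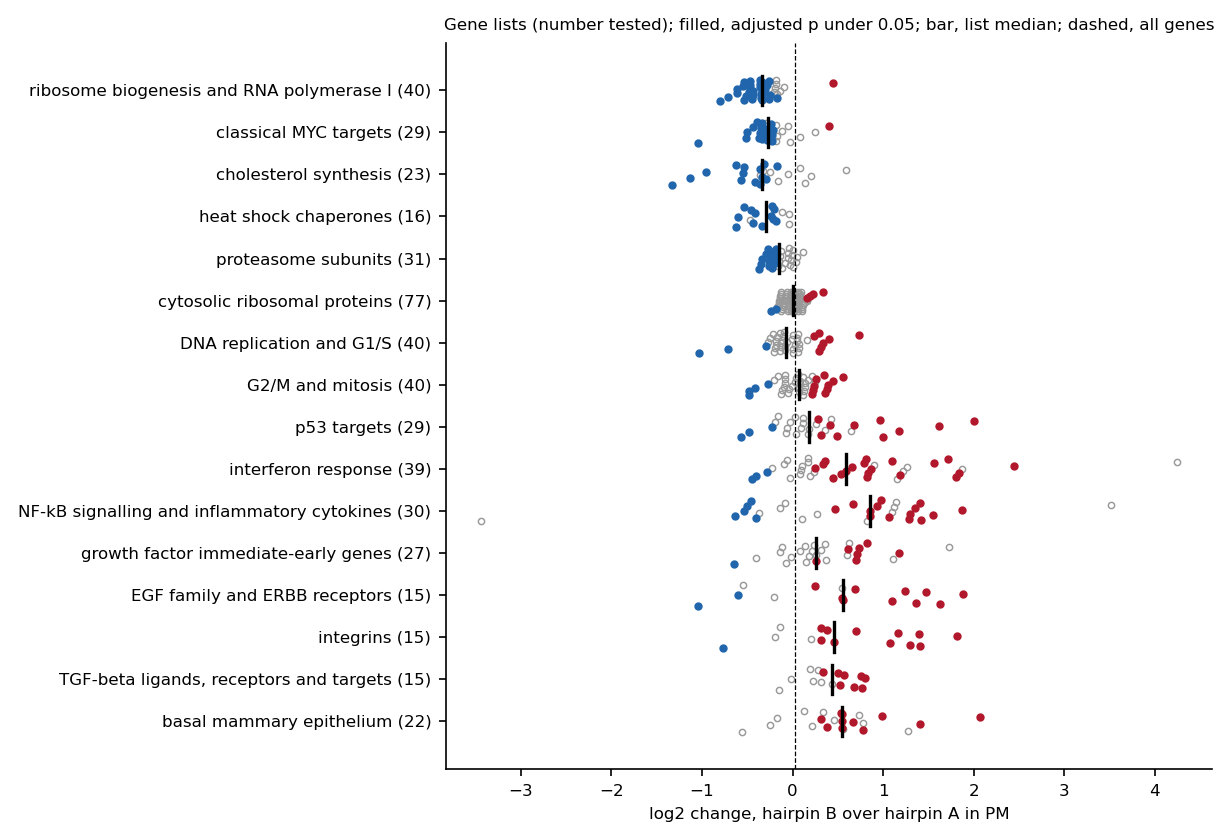
Log2 change of hairpin B over hairpin A in PM for each tested member of 16 gene lists, 1 point per gene, filled where the adjusted p was under 0.05, with a bar at the list's median and a dashed line at the median of all genes. Ribosome biogenesis, MYC target, heat shock and cholesterol synthesis members lie mostly below 0, and integrin, EGF family and basal members mostly above it.

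Genes of ribosome biogenesis and RNA polymerase I, which make ribosomal RNA and assemble ribosomes in the nucleolus, fell with hairpin B in 32 of 40 members tested, and 1 rose. Of all genes 13.5% fell and 12.7% rose. The list's median log2 change was -0.34 in PM. In PE 12 fell and 1 rose, with a median of -0.16. NOLC1, a nucleolar scaffold for small nucleolar particles, stood at 280.3, 296, 247 and 330.2 CPM with hairpin B and at 509, 511, 492 and 493 CPM with hairpin A. Its groups did not overlap, with a log2 change of -0.80 ± 0.07 (SE), adjusted p = 3.2e-10. NAT10, which acetylates ribosomal RNA, stood at 129, 129, 121 and 154 CPM with hairpin B and at 223, 226, 223 and 198 CPM with hairpin A, a log2 change of -0.71 ± 0.07 (SE), adjusted p = 4.3e-09. The GFP libraries averaged 152 ± 10.3 CPM of NAT10, closer to hairpin B. NOP16 (-0.62), a nucleolar protein, and RRN3 (-0.54), the initiation factor of RNA polymerase I, fell as well. RRN3 averaged 153 ± 15.7 CPM with hairpin B, 222 ± 17.7 CPM with hairpin A and 152 ± 7.54 CPM with the GFP hairpin. For 3 members the change differed between the lines. One of these was POLR1B, the second largest subunit of RNA polymerase I, named for that difference: its log2 change was -0.44 ± 0.08 (SE), adjusted p = 3.0e-05 in PM and -0.06 ± 0.08 (SE), adjusted p = 0.66 in PE, and the difference was -0.38 ± 0.11 (SE), adjusted p = 0.032.

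The E-box CACGTG, the letters MYC and MAX bind best, was searched on both strands in the 250 bases before each gene's start in RefSeq GRCh38.p14. These letters read the same on both strands. They occurred in 6.49% of all 27305 promoters, in 8.75% of the 11521 promoters of protein-coding genes tested, in 6.64% of those called higher with hairpin B and in 11.3% of those called lower. Of the classical MYC targets with a promoter in the table, 9 of 24 held them (37.5%), and of ribosome biogenesis genes 4 of 36 (11.1%). Of the members called lower, 5 of 14 MYC targets (35.7%) and 3 of 28 ribosome biogenesis genes (10.7%) held them. The promoters of HSPD1 and HSPE1 hold the same E-box (chr2:197500357-197500362). Falling members held the letters about as often as their lists, so these shares describe the lists and not the hairpins. A match describes the letters and is no evidence of binding. The promoters of NAT10 (chr11:34105379-34105628, plus strand), SRM (chr1:11060019-11060268, minus strand) and PRDX3 (chr10:119178813-119179062, minus strand) show where the letters can lie in genes that fell. They are written 5′ to 3′ along each gene, ending at the base before its start, with CACGTG in capitals.
NAT10: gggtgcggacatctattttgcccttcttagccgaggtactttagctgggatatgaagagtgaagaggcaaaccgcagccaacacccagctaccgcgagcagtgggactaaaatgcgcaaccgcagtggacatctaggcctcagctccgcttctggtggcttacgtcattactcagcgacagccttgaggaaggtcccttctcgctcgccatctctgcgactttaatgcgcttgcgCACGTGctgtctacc
SRM: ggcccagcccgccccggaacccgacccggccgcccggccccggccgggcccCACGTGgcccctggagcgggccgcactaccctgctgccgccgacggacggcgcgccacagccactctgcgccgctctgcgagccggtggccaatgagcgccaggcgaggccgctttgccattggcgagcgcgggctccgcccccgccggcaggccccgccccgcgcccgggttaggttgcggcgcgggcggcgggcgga
PRDX3: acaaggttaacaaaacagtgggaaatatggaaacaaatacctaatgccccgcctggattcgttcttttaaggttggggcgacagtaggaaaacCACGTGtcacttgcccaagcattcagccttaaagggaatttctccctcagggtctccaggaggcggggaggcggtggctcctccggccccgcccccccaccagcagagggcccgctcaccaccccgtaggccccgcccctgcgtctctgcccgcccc
In NAT10 the E-box begins 15 bases before the start, in PRDX3 157 bases and in SRM 199 bases before it. SRM, the spermidine synthase, stood at 234, 245, 249 and 261 CPM with hairpin B and at 361, 400.1, 349.8 and 299 CPM with hairpin A, a log2 change of -0.51 ± 0.10 (SE), adjusted p = 2.2e-04. In the GFP libraries SRM averaged 212 ± 16.1 CPM, below the means of both CHD1 hairpins. PRDX3, a mitochondrial peroxidase named here for its promoter after its value was seen, averaged 162 ± 8.44 CPM with hairpin B and 207 ± 2.96 CPM with hairpin A, a log2 change of -0.35 ± 0.07 (SE), adjusted p = 1.8e-04. In the GFP libraries PRDX3 averaged 34.3 ± 4.36 CPM, far below both CHD1 hairpins.

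The 77 cytosolic ribosomal protein genes, the products that ribosomes are built from, stood apart from the biogenesis genes: 4 rose, 2 fell and the median log2 change was 0.01. RPL12 changed by 0.34 ± 0.07 (SE), adjusted p = 1.7e-04 and RPL8 by -0.24 ± 0.06 (SE), adjusted p = 0.0043. Of 13 protein genes of the mitochondrial genome 0 passed in either direction in PM and 0 in PE, and those PE counts were also 0 at an unadjusted p under 0.05, by DESeq2 and by limma-voom.

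Heat shock chaperones, which fold and refold proteins, fell in 12 of 16 members and rose in 0, against 13.5% and 12.7% of all genes. Their median log2 change was -0.29. In PE 4 fell and 1 rose. HSPD1 is also among the classical MYC targets above, so its fall in PM is counted in both lists. HSPH1, a nucleotide exchange factor of HSP70, stood at 254, 289, 243 and 233 CPM with hairpin B and at 396, 401, 364 and 313 CPM with hairpin A, a log2 change of -0.53 ± 0.12 (SE), adjusted p = 0.0026. DNAJB1, an HSP70 co-chaperone, stood at 87.1, 87.2, 87.4 and 89.8 CPM with hairpin B and at 133, 128, 116 and 106 CPM with hairpin A, a log2 change of -0.46 ± 0.07 (SE), adjusted p = 1.2e-05. HSPA1A changed by -0.60 ± 0.17 (SE), adjusted p = 0.013, with hairpin A replicate 4 at 746 CPM among the hairpin B values. HSPA1A and HSPA1B are near-identical copies, so their separate values are uncertain.

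Of 31 proteasome subunits 14 fell (45.2%) and 0 rose in PM, against 13.5% and 12.7% of all genes. In PE 12 fell, against 9.09%. Of protein-coding genes in the highest of 5 equal groups by level, 34.1% fell in PM. The falls in PM numbered 7 with library sizes alone, 9 without hairpin B replicate 1, 8 without hairpin A replicate 2 and 9 without hairpin B replicate 3 and hairpin A replicate 4 together. The core subunit PSMB2 averaged 134 ± 7.68 CPM with hairpin B and 174 ± 11.4 CPM with hairpin A, with a log2 change of -0.37 ± 0.07 (SE), adjusted p = 4.5e-05. Of 25 RNA helicases and splicing factors 12 fell (48%) and 1 rose, and 7 fell without that last pair of libraries. The rise did not pass without hairpin B replicate 1 or 4 or hairpin A replicate 1, 2 or 3. HNRNPU, a nuclear RNA-binding protein, averaged 848 ± 39.7 CPM with hairpin B and 1049 ± 12.4 CPM with hairpin A, a log2 change of -0.31 ± 0.05 (SE), adjusted p = 3.1e-05.

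Cholesterol synthesis, which builds sterols from acetyl-CoA, was lower with hairpin B in both lines: 14 of 23 genes fell and 0 rose in PM (median log2 -0.34), and 15 fell and 1 rose in PE (median -0.44). Of all genes 13.5% fell and 12.7% rose in PM, and 9.09% fell and 7.48% rose in PE. IDI1, which isomerises the pathway's isoprene units, stood at 27.6, 29.3, 28 and 32.3 CPM with hairpin B and at 77.8, 73.9, 66.6 and 75.9 CPM with hairpin A. Its log2 change was -1.33 ± 0.08 (SE), adjusted p = 2.0e-14 in PM and -1.39 ± 0.08 (SE), adjusted p = 1.5e-14 in PE. IDI1 averaged 89 ± 5.2 CPM with the GFP hairpin. DHCR7 (-0.95), SQLE (-0.62) and FDFT1 (-0.57), further enzymes of the pathway, fell too. With 0 rises by edgeR, 1 of the 23 genes was higher at an unadjusted p under 0.05, 0 by DESeq2 and 1 by limma-voom.

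Fatty acid synthesis, which draws on the same acetyl-CoA, had 7 of 12 members lower and 3 higher. ACLY, which makes cytosolic acetyl-CoA from citrate, stood at 309, 315, 291 and 306 CPM with hairpin B and at 600.4, 604, 614 and 561 CPM with hairpin A, a log2 change of -0.96 ± 0.06 (SE), adjusted p = 2.4e-14. ACLY averaged 351 ± 14.7 CPM with the GFP hairpin, and the change was smaller in PE (-0.60 ± 0.06 (SE), adjusted p = 3.3e-09, difference -0.36 ± 0.08 (SE), adjusted p = 0.006). The fatty acid synthase FASN averaged 913 ± 48.9 CPM with hairpin B and 1345 ± 92.1 CPM with hairpin A, a log2 change of -0.56 ± 0.07 (SE), adjusted p = 8.1e-08. ACACB, among the largest rises above, was an exception in this list.

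The machinery that hairpins themselves use was examined too: of 13 RNA interference genes 5 fell (38.5%) and 0 rose, against 13.5% and 12.7% of all genes. That share of falls is near the 34.1% of protein-coding genes in the highest of 5 equal groups by level. At an unadjusted p under 0.05, 2 members were higher, and 1 was higher by DESeq2 and 1 by limma-voom; without hairpin A replicate 4, 1 passed as higher. DICER1, which cuts hairpins into small RNAs, stood at 38.6, 38.7, 33 and 34.8 CPM with hairpin B and at 69.7, 61, 70.5 and 70.8 CPM with hairpin A, a log2 change of -0.91 ± 0.08 (SE), adjusted p = 1.4e-10. AGO2, which carries the small RNA and cuts its target, stood at 89.4, 85.4, 75.6 and 86.4 CPM with hairpin B and at 143, 131, 134 and 140.2 CPM with hairpin A, a log2 change of -0.70 ± 0.07 (SE), adjusted p = 1.1e-09. XPO5, the nuclear exporter of hairpins, changed by -0.63 ± 0.09 (SE), adjusted p = 5.9e-07, and DROSHA, the nuclear enzyme of the same route, by -0.31 ± 0.07 (SE), adjusted p = 0.0011. DICER1 averaged 65.3 ± 2.18 CPM and AGO2 129.9 ± 2.36 CPM under the GFP hairpin, both near hairpin A. The part of these genes in the hairpins' effects was not tested.

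Of 21 CHD and ISWI remodeller genes, relatives and partners of CHD1, 8 fell (38.1%) and 3 rose, against 13.5% and 12.7% of all genes. That share of falls is near the 34.1% of protein-coding genes in the highest of 5 equal groups by level. The falls numbered 4 without hairpin B replicate 3 and hairpin A replicate 4 together. CHD7, a remodeller of enhancers, stood at 31.3, 24.8, 22.9 and 37.7 CPM with hairpin B and at 56.2, 49.1, 56.9 and 50.8 CPM with hairpin A, a log2 change of -0.87 ± 0.12 (SE), adjusted p = 1.5e-06. SMARCA1, an ISWI motor subunit, moved up, at 6.79, 7.1, 5.77 and 5.15 CPM with hairpin B and 3.57, 3.05, 3.74 and 3.22 CPM with hairpin A, a log2 change of 0.86 ± 0.14 (SE), adjusted p = 1.7e-05. BAZ2A, the NoRC subunit that silences ribosomal DNA, changed by -0.62 ± 0.07 (SE), adjusted p = 1.9e-08.

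EGF-family ligands and their receptors were higher with hairpin B in PM: 10 of 15 members rose and 2 fell, against 12.7% and 13.5% of all genes, with a median log2 change of 0.56. The falls numbered 1 without hairpin B replicate 1 or without hairpin A replicate 1 or 2. In PE 2 rose and 1 fell, against 7.48% and 9.09% of all genes, and for 4 members the change was higher in PM than in PE. Among the ligands, AREG stood at 438, 495, 413 and 473 CPM with hairpin B and at 155, 164, 155 and 230.4 CPM with hairpin A, a log2 change of 1.37 ± 0.15 (SE), adjusted p = 1.5e-06. EREG stood at 20.7, 28.4, 14.3 and 16.7 CPM with hairpin B and at 6.98, 7.87, 4.86 and 6.25 CPM with hairpin A, a log2 change of 1.63 ± 0.19 (SE), adjusted p = 1.5e-06. These ligands of EGFR averaged 559 ± 39.5 CPM (AREG) and 27.2 ± 3.2 CPM (EREG) under the GFP hairpin, near or above hairpin B. In PE AREG did not pass (0.20 ± 0.15 (SE), adjusted p = 0.44), and the difference between the lines was 1.17 ± 0.22 (SE), adjusted p = 0.0022 for AREG and 1.24 ± 0.25 (SE), adjusted p = 0.0045 for EREG. BTC, betacellulin, changed by 1.24 ± 0.21 (SE), adjusted p = 3.2e-05, and NRG1, a ligand of ERBB3 and ERBB4, by 1.88 ± 0.31 (SE), adjusted p = 1.6e-05 in PM and 2.27 ± 0.32 (SE), adjusted p = 3.1e-06 in PE. The receptor EGFR, named after its value was seen, averaged 113 ± 2.18 CPM with hairpin B and 77.6 ± 3.76 CPM with hairpin A, a log2 change of 0.54 ± 0.07 (SE), adjusted p = 4.5e-07 in PM and 0.52 ± 0.07 (SE), adjusted p = 1.5e-06 in PE. The medium of every culture held EGF.

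Of 27 immediate-early genes that growth factors induce, 7 rose and 1 fell, against 12.7% and 13.5% of all genes. With the replicate number as a block 11 rose. In PE 1 rose and 7 fell, and for 7 members the change differed between the lines. PHLDA1 stood at 206, 219.9, 172 and 196 CPM with hairpin B and at 86.1, 86.2, 90.7 and 88 CPM with hairpin A, a log2 change of 1.18 ± 0.08 (SE), adjusted p = 1.4e-12. DUSP6, a phosphatase that switches off ERK kinases, stood at 38.4, 32.5, 27.1 and 38.5 CPM with hairpin B and at 21.7, 21.6, 21.5 and 18.7 CPM with hairpin A. It changed by 0.71 ± 0.16 (SE), adjusted p = 0.0015 in PM and by -0.86 ± 0.15 (SE), adjusted p = 3.1e-04 in PE, opposite directions, with a difference of 1.57 ± 0.22 (SE), adjusted p = 8.2e-05. DUSP1, a phosphatase of stress kinases, changed by 0.82 ± 0.10 (SE), adjusted p = 6.1e-07, and MCL1, which protects from apoptosis, by 0.71 ± 0.07 (SE), adjusted p = 8.4e-10. MCL1 averaged 738 CPM with hairpin B and 452 CPM with hairpin A. In PM with the GFP hairpin PHLDA1 averaged 143 CPM, DUSP6 43.6 CPM, DUSP1 372 CPM and MCL1 735 CPM, each above its hairpin A mean. EGR1 did not pass (0.60 ± 0.33 (SE), adjusted p = 0.21) but did with the replicate number as a block (adjusted p = 0.013). FOS varied from 19.3 to 78.3 CPM with hairpin B and from 16.5 to 65.4 CPM with hairpin A and did not pass (0.18 ± 0.59 (SE), adjusted p = 0.88).

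NF-kB genes and inflammatory cytokines had 14 of 30 members higher and 5 lower with hairpin B in PM, against 12.7% and 13.5% of all genes. The list's median log2 change was 0.85. The falls numbered 3 without hairpin A replicate 3. In PE 0 rose by edgeR (also 0 at an unadjusted p under 0.05, by DESeq2 and by limma-voom) and 7 fell, with a median of -0.25, and 8 members differed between the lines, each higher in PM. The neutrophil chemokine CXCL1 stood at 97.7, 133, 122 and 66.5 CPM with hairpin B and at 39.6, 44.9, 34.3 and 23.3 CPM with hairpin A, a log2 change of 1.56 ± 0.22 (SE), adjusted p = 3.0e-05. In the GFP libraries CXCL1 averaged 385 ± 62.4 CPM, above both CHD1 hairpins. CXCL3, a close relative, stood at 16.1, 22.2, 14.8 and 8.33 CPM with hairpin B and at 5.21, 5.95, 3.59 and 1.89 CPM with hairpin A, and averaged 132 ± 39.3 CPM with the GFP hairpin. The cytokines IL1A and IL1B changed by 1.35 ± 0.28 (SE), adjusted p = 0.0011 and by 1.40 ± 0.28 (SE), adjusted p = 8.1e-04. IL1A averaged 16.9 ± 5.51 CPM with hairpin B, 6.51 ± 1.53 CPM with hairpin A and 64.5 ± 12.6 CPM with the GFP hairpin (SD, n = 4 each). The differences between the lines were 1.33 ± 0.31 (SE), adjusted p = 0.014 for CXCL1 and 1.68 ± 0.37 (SE), adjusted p = 0.0099 for IL1A.

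Interferon response genes, which restrict viruses, were more often higher than lower: 19 of 39 rose and 3 fell in PM (median log2 0.59), and 12 rose and 2 fell in PE (median 0.22). Of all genes 12.7% rose and 13.5% fell in PM, and 7.48% rose and 9.09% fell in PE. The list's median in PM was 0.37 over the members that reached 5 CPM in at least 4 libraries. HERC5, the ligase that attaches ISG15 to new proteins, stood at 5.7, 8.05, 5.97 and 5.38 CPM with hairpin B and at 1.77, 2.14, 1.51 and 1.79 CPM with hairpin A, a log2 change of 1.80 ± 0.24 (SE), adjusted p = 3.8e-07. IFIT1, which binds foreign RNA ends, stood at 2.91, 4.03, 2.81 and 3.4 CPM with hairpin B and at 0.787, 0.762, 0.711 and 1.79 CPM with hairpin A, a log2 change of 1.72 ± 0.29 (SE), adjusted p = 2.0e-05. IFI6, a membrane protein of the same response named for its promoter after its value was seen, stood at 7.58, 5.17, 7.5 and 6.16 CPM with hairpin B and at 2.00, 1.65, 4.14 and 4.49 CPM with hairpin A, a log2 change of 1.10 ± 0.22 (SE), adjusted p = 1.9e-04. The levels of all 3 are low. CMPK2 and IFI27, whose fitted changes were large, are not relied on. CMPK2 did not pass without hairpin B replicate 2 or hairpin A replicate 1 or 2. IFI27 did not pass without hairpin B replicate 1, 3 or 4 or hairpin A replicate 1, 3 or 4, nor with the replicate number as a block (adjusted p = 0.070).

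Interferon-stimulated promoters carry the interferon-stimulated response element, bound by STAT and IRF factors, whose core is GAAA, any 2 bases and GAAA again. This core was searched on both strands in the same 250 bases, and a match on the other strand reads TTTC, any 2 bases and TTTC. It occurred in 3.07% of all promoters, in 2.52% of protein-coding genes tested, in 2.23% of those called higher and in 2.39% of those called lower. Of the interferon list, 18 of 28 members with a promoter held it, and of those that rose 11 of 14. The promoters of HERC5 (chr4:88456869-88457118, plus strand) and IFI6 (chr1:27672193-27672442, minus strand) are shown because each holds 3 matches. They are written 5′ to 3′ along the gene, with matches on either strand in capitals.
HERC5: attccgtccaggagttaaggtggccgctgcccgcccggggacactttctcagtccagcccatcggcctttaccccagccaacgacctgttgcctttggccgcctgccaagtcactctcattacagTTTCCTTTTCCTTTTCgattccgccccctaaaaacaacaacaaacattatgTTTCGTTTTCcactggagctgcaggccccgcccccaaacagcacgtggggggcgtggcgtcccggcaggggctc
IFI6: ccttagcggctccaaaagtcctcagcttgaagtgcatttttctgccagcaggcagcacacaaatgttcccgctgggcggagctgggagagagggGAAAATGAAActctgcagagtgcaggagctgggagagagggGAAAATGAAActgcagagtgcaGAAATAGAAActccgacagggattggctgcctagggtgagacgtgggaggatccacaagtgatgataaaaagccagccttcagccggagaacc
In HERC5 the matches begin 125, 119 and 74 bases before the start, and the first pair overlap. In IFI6 they begin 156, 115 and 93 bases before it. The list was drawn up for the interferon response, so the share with this repeat describes the list and not the hairpins.

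Class I antigen presentation, which interferon also raises, had 6 of 15 members lower and 1 higher, and 0 higher without hairpin B replicate 2. TAP2, a subunit of the peptide transporter, stood at 556, 542, 472 and 500.5 CPM with hairpin B and at 708, 786, 712 and 658 CPM with hairpin A, a log2 change of -0.47 ± 0.08 (SE), adjusted p = 1.5e-05. In PE TAP2 did not pass (-0.06 ± 0.08 (SE), adjusted p = 0.69).

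Genes that p53 switches on after damage had 10 of 29 members higher and 3 lower in PM, against 12.7% and 13.5% of all genes. Their median log2 change was 0.18, or 0.31 without hairpin B replicate 4. In PE 22 rose and 1 fell, with a median of 0.48, and for 5 members the change was smaller in PM. TP53I3, a quinone reductase, stood at 140.0, 148, 187 and 95.3 CPM with hairpin B and at 37.2, 39.3, 35.4 and 29.7 CPM with hairpin A, a log2 change of 2.01 ± 0.21 (SE), adjusted p = 4.4e-07. ZMAT3, an RNA-binding protein, stood at 88.5, 89.5, 89.2 and 81.5 CPM with hairpin B and at 46.1, 41.2, 47.9 and 42.6 CPM with hairpin A, a log2 change of 0.97 ± 0.07 (SE), adjusted p = 2.3e-12. BTG2, an antiproliferative regulator, changed by 1.61 ± 0.21 (SE), adjusted p = 1.1e-05, and DDB2, a DNA damage sensor, by 1.18 ± 0.12 (SE), adjusted p = 2.8e-08. The cell cycle inhibitor CDKN1A did not pass in PM (0.12 ± 0.16 (SE), adjusted p = 0.65). It averaged 517 ± 123 CPM with hairpin B, 475 ± 43.8 CPM with hairpin A and 148 ± 16.5 CPM with the GFP hairpin, so both CHD1 hairpins lay above GFP. In PE CDKN1A changed by 0.73 ± 0.16 (SE), adjusted p = 0.0027. GDF15, a stress cytokine, did not pass in PM (0.65 ± 0.26 (SE), adjusted p = 0.08), although it did with the replicate number as a block (adjusted p = 0.0074) and without hairpin B replicate 4 (adjusted p = 0.021). It changed by 2.27 ± 0.28 (SE), adjusted p = 1.1e-05 in PE, and the difference between the lines was -1.62 ± 0.38 (SE), adjusted p = 0.016.

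Cell cycle genes changed in both directions, as all genes did. Of 40 DNA replication and G1/S genes 7 rose (17.5%) and 3 fell (7.5%), against 12.7% and 13.5% of all genes. Of protein-coding genes 16.5% rose and 18.6% fell, so the rises were near that share. The replication and G1/S list had 6 falls under the replicate block and 4 rises without hairpin B replicate 2. The falls numbered 5 without hairpin B replicate 4 and 5 without hairpin A replicate 4. Of 40 G2/M and mitosis genes 10 rose and 4 fell, against 12.7% and 13.5% of all genes, with a median log2 change of 0.07. In PE 1 of these rose and 5 fell, and for 3 the change was higher in PM than in PE. UHRF1, which maintains DNA methylation, stood at 60.1, 64.2, 56.4 and 68.7 CPM with hairpin B and at 132, 129, 129.7 and 117 CPM with hairpin A, a log2 change of -1.03 ± 0.11 (SE), adjusted p = 3.0e-08 in PM and -1.11 ± 0.11 (SE), adjusted p = 1.9e-08 in PE. FEN1, which trims Okazaki fragments, changed by 0.73 ± 0.13 (SE), adjusted p = 1.2e-04. CCNA2, the cyclin of S phase and G2, changed by -0.48 ± 0.08 (SE), adjusted p = 2.3e-05. The proliferation marker MKI67 did not pass (-0.03 ± 0.08 (SE), adjusted p = 0.81).

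Of 15 integrin subunits, the receptors of the matrix, 11 rose and 1 fell, against 12.7% and 13.5% of all genes. Their median log2 change was 0.45, and in PE 3 rose and 1 fell, against 7.48% and 9.09%. ITGA2, the collagen receptor subunit, stood at 66, 67.6, 50.9 and 55.6 CPM with hairpin B and at 26.2, 24.1, 28.4 and 28.3 CPM with hairpin A, with changes of 1.16 ± 0.09 (SE), adjusted p = 7.5e-12 in PM and 1.06 ± 0.09 (SE), adjusted p = 8.1e-11 in PE. ITGA1, its relative, stood at 17.7, 16.1, 15.9 and 13.6 CPM with hairpin B and at 6.26, 5.66, 6.87 and 5.18 CPM with hairpin A, a log2 change of 1.39 ± 0.12 (SE), adjusted p = 3.5e-11. For ITGA1 the lines differed (1.20 ± 0.16 (SE), adjusted p = 5.7e-06). ITGA10, another collagen receptor subunit, stood at 26.5, 19.1, 23.5 and 21.2 CPM with hairpin B and at 5.96, 6.00, 7.94 and 5.67 CPM with hairpin A, a log2 change of 1.81 ± 0.28 (SE), adjusted p = 2.7e-05. Of 15 TGF-beta ligands, receptors and targets 8 rose and 0 fell, and TGFB2 changed by 0.76 ± 0.17 (SE), adjusted p = 6.2e-04 in PM and by 1.67 ± 0.16 (SE), adjusted p = 3.3e-09 in PE.

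Of 14 matrix metalloproteinases and inhibitors 5 rose and 2 fell (14.3%), against 12.7% and 13.5% of all genes, so the falls were near the all-gene share. TIMP1, the inhibitor of matrix metalloproteinases (chrX:47582436-47586789), stood at 1145, 1250.0, 1137 and 1375 CPM with hairpin B and at 396, 440.0, 367 and 447 CPM with hairpin A. Its log2 change was 1.57 ± 0.09 (SE), adjusted p = 3.6e-14 in PM and -0.32 ± 0.08 (SE), adjusted p = 0.0069 in PE, opposite directions, with a difference of 1.90 ± 0.12 (SE), adjusted p = 1.2e-11. TIMP1 averaged 1029 ± 106 CPM with the GFP hairpin in PM. FSTL1, a secreted glycoprotein of BMP signalling, stood at 153, 146, 152 and 156 CPM with hairpin B and at 59.98, 63.1, 66.2 and 53 CPM with hairpin A, a log2 change of 1.32 ± 0.07 (SE), adjusted p = 2.6e-15. ID1, a target of BMP signals, stood at 221, 219, 235 and 281 CPM with hairpin B and at 115, 127, 109 and 133 CPM with hairpin A, a log2 change of 0.98 ± 0.10 (SE), adjusted p = 2.4e-08.

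Of 28 mesenchymal genes and factors of epithelial-mesenchymal transition 9 rose and 2 fell, with a median log2 change of 0.38. The falls numbered 0 or 1 whenever a hairpin B library or hairpin A replicate 1, 2 or 3 was left out. SNAI2, a repressor of epithelial genes, stood at 37.7, 53.2, 42.7 and 45.4 CPM with hairpin B and at 14.3, 18.6, 13.8 and 15.5 CPM with hairpin A, a log2 change of 1.52 ± 0.17 (SE), adjusted p = 4.0e-07. MMP2, a gelatinase, changed by 1.29 ± 0.34 (SE), adjusted p = 0.0082 and MMP14, its membrane activator, by 1.27 ± 0.14 (SE), adjusted p = 2.2e-07. FN1, fibronectin, did not pass (-0.21 ± 0.26 (SE), adjusted p = 0.63). Beside these, the summed level of 16 fibroblast and endothelial markers ran from 45.1 to 72.1 CPM with hairpin B, from 21.7 to 24.1 CPM with hairpin A and from 23.4 to 48.7 CPM with the GFP hairpin. Without DCN the tested markers summed to 23.1 to 31 CPM with hairpin B and 16.6 to 22.7 CPM with hairpin A. Of 13 markers tested 2 rose, DCN and TEK. TEK, an endothelial receptor at a mean of 0.276 CPM with hairpin B and 0.0568 CPM with hairpin A, did not pass without hairpin B replicate 4, where its log2 change was 1.09, nor without hairpin A replicate 1, 2 or 4. With hairpin B the counts per library ran from 0 to 26 for COL1A2, from 0 to 23 for COL3A1 and from 0 to 18 for CDH5, and with hairpin A these markers were at 0 in all 4 libraries. Their part in the result was not tested. The summed level of 17 immune cell markers ran from 41 to 51.8 CPM with hairpin B and from 41.5 to 49.5 CPM with hairpin A, and CD3D was at 0 in all 8 libraries.

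Genes of basal mammary epithelium moved differently in the lines: in PM 11 of 22 rose and 0 fell (median log2 0.54), and in PE 4 rose and 11 fell (median -0.66). The change differed between the lines for 13 of them, each higher in PM. MYLK, myosin light chain kinase, stood at 10.3, 11.8, 8.98 and 8.99 CPM with hairpin B and at 1.54, 2.7, 2.52 and 2.67 CPM with hairpin A, and rose in both lines (2.07 ± 0.23 (SE), adjusted p = 1.2e-07 in PM and 2.23 ± 0.22 (SE), adjusted p = 2.8e-08 in PE). ITGB4, the hemidesmosome integrin, stood at 173, 125, 169 and 121 CPM with hairpin B and at 47.9, 42.2, 61.7 and 69.1 CPM with hairpin A, a log2 change of 1.41 ± 0.23 (SE), adjusted p = 1.1e-04. KRT6A, a keratin of activated epithelium, stood at 844, 779, 612 and 763 CPM with hairpin B and at 493, 453, 399 and 537 CPM with hairpin A. It changed by 0.67 ± 0.18 (SE), adjusted p = 0.0077 in PM and by -1.49 ± 0.18 (SE), adjusted p = 6.9e-06 in PE, with a difference of 2.16 ± 0.25 (SE), adjusted p = 2.2e-05. KRT6A, KRT6B and KRT6C are near-identical copies, so their separate values are uncertain. KRT5 did not pass in PM (0.45 ± 0.20 (SE), adjusted p = 0.1), although it did when the compared groups were fitted alone (adjusted p = 1.1e-04). It changed by -0.67 ± 0.20 (SE), adjusted p = 0.024 in PE.

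Of the 8 largest differences between the lines that were higher in PM, KRT14, KRT16, ITGB6 and ESRP1 changed in PE and did not pass in PM, IL1RL1 and TP53I11 changed in PM and did not pass in PE, and S100A8 and FLRT3 changed in opposite directions. KRT14, the partner keratin of KRT5, changed by -5.06 ± 0.53 (SE), adjusted p = 1.1e-06 in PE and by -0.25 ± 0.50 (SE), adjusted p = 0.78 in PM. It averaged 1.18 ± 0.561 CPM in PM with hairpin B and 1.28 ± 0.844 CPM in PM with hairpin A, and 0.529 ± 0.137 CPM in PE with hairpin B and 17.3 ± 2.69 CPM in PE with hairpin A. ESRP1, an epithelial splicing regulator, averaged 15.1 ± 0.798 CPM in PM with hairpin B and 14.6 ± 1.44 CPM in PM with hairpin A. In PE it averaged 0.145 ± 0.0692 CPM with hairpin B and 1.76 ± 0.675 CPM with hairpin A, and the difference between the lines was 3.74 ± 0.43 (SE), adjusted p = 2.1e-06. ITGB6, the epithelial integrin that activates TGF-beta, likewise changed by 0.20 ± 0.28 (SE), adjusted p = 0.67 in PM and by -3.69 ± 0.35 (SE), adjusted p = 5.1e-08 in PE. KRT16, a keratin with near-identical pseudogene copies and so an uncertain value, changed by 0.34 ± 0.58 (SE), adjusted p = 0.74 in PM and by -3.86 ± 0.70 (SE), adjusted p = 5.8e-04 in PE. IL1RL1, the receptor of interleukin-33, stood at 2.94, 3.39, 1.56 and 4.67 CPM in PM with hairpin B and at 0.459, 0.393, 0.183 and 0.0326 CPM in PM with hairpin A, and changed by 3.6 ± 0.68 (SE), adjusted p = 5.3e-04 in PM and by -0.91 ± 0.43 (SE), adjusted p = 0.18 in PE. Its difference between the lines was 4.52 ± 0.82 (SE), adjusted p = 0.002, and neither that nor its change in PM passed with limma-voom. TP53I11, a p53-induced protein, stood at 4.53, 3.39, 6.82 and 2.63 CPM in PM with hairpin B and at 0.623, 0.246, 0.0323 and 0.554 CPM in PM with hairpin A, and changed by 3.79 ± 0.52 (SE), adjusted p = 4.5e-06 in PM and by -0.44 ± 0.41 (SE), adjusted p = 0.56 in PE, with a difference of 4.23 ± 0.66 (SE), adjusted p = 2.0e-04. Both genes were near absent with hairpin A in PM, and in PE they averaged 11.9 ± 6.59 CPM (IL1RL1) and 4.25 ± 1.8 CPM (TP53I11) with hairpin B and 22.2 ± 8.76 CPM and 5.78 ± 0.431 CPM with hairpin A. FLRT3, an adhesion protein, moved in opposite directions, by 1.46 ± 0.25 (SE), adjusted p = 3.1e-05 in PM and by -2.49 ± 0.29 (SE), adjusted p = 6.9e-08 in PE. S100A9, a calcium-binding protein of stressed epithelium and neutrophils, stood at 36.4, 24.1, 25.3 and 28.5 CPM in PM with hairpin B and at 10.9, 7.01, 11.8 and 13.6 CPM in PM with hairpin A. It also moved in opposite directions, by 1.40 ± 0.40 (SE), adjusted p = 0.012 in PM and by -2.18 ± 0.39 (SE), adjusted p = 5.0e-04 in PE. Its partner S100A8 changed by 1.54 ± 0.51 (SE), adjusted p = 0.031 in PM and by -2.94 ± 0.45 (SE), adjusted p = 1.0e-04 in PE, and the change in PM did not pass without hairpin B replicate 1 or 4 or without any 1 of the hairpin A libraries.

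Over all genes, the change differed between PM and PE for 1044 (5.01%), higher in PM for 613 (2.94%) and lower in PM for 431 (2.07%). Of these, 264 (1.27%) and 94 (0.451%) differed by at least 2-fold. With the replicate number as a block the count was 1753, of which 971 were higher and 782 lower. Among the differences that were lower in PM, BMP6 fell in PM as above and changed by 1.00 ± 0.39 (SE), adjusted p = 0.076 in PE, with a difference of -2.77 ± 0.51 (SE), adjusted p = 6.0e-04. The other 7 of the 8 largest were GRIN2C (log2 difference -3.30), an NMDA receptor subunit, EEF1A2 (-2.73), a tissue-restricted elongation factor, LY6D (-2.70), a GPI-anchored surface protein, VIPR1 (-2.56), a receptor of vasoactive intestinal peptide, GDA (-2.46), a guanine deaminase, SORL1 (-2.45), a sorting receptor, and HBA2 (-2.38), the near-identical copy of HBA1. GRIN2C, LY6D, VIPR1 and SORL1 rose in PE and did not pass in PM, EEF1A2 and HBA2 fell in PM and did not pass in PE, and GDA fell in PM and rose in PE. The difference for VIPR1 (adjusted p = 0.041) did not pass in most fits that left out 1 library, nor with limma-voom or the compared groups alone. With limma-voom, the fall of GDA in PM and the difference for HBA2 did not pass either.

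**Figure D4:**
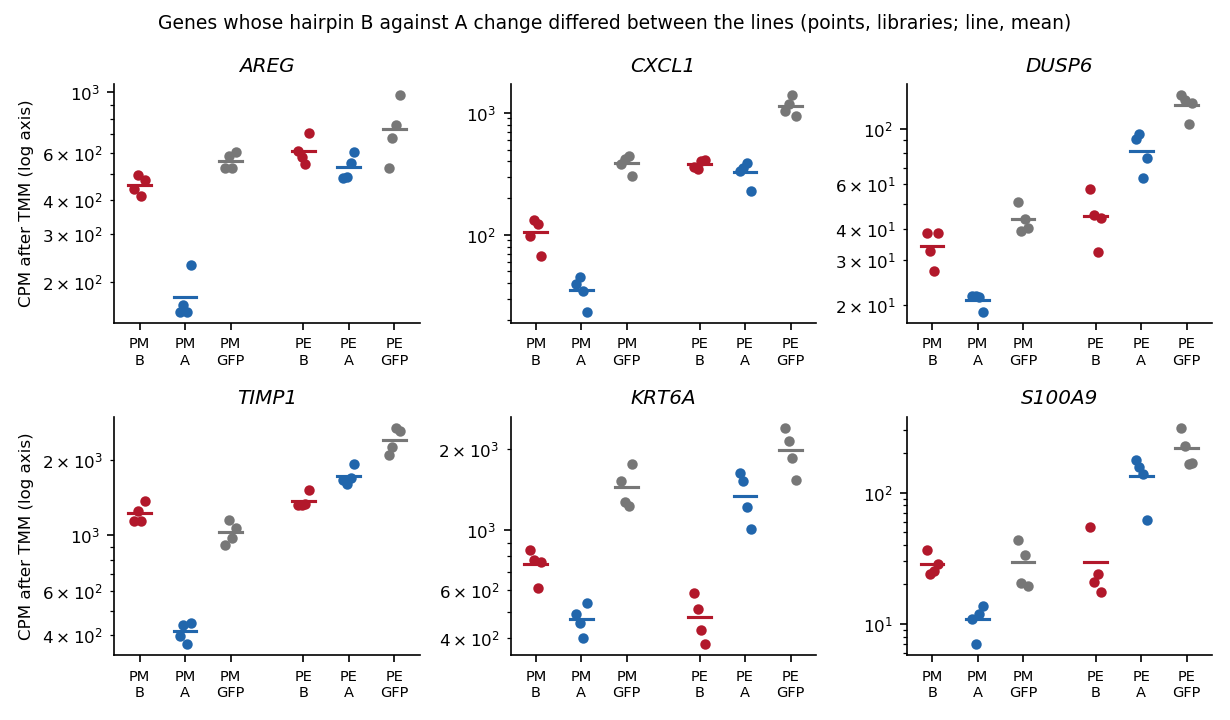
Level in CPM of AREG, CXCL1, DUSP6, TIMP1, KRT6A and S100A9 in each library of PM and PE with hairpin B, hairpin A and the GFP hairpin; points are libraries, horizontal lines are means and the axes are logarithmic. In PM the mean of hairpin B lies above hairpin A for all 6 genes, and in PE it lies below the mean of hairpin A for DUSP6, TIMP1, KRT6A and S100A9.

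Rises and falls lay at different expression levels. Protein-coding genes were split into 5 equal groups by mean level over the 24 libraries, and the median log2 change was 0.43 in the lowest group and -0.08 in the highest. In the lowest group 8.68% of genes rose and 1.76% fell. In the highest group 15.0% rose and 34.1% fell. Without hairpin B replicate 3, the library with the most genes detected, the median of the lowest group was 0.31. Long non-coding RNAs, which are mostly weak, had 219 of 3806 higher and 83 lower, with a median log2 change of 0.22, against 2342 higher and 2640 lower of 14173 protein-coding genes. LINC02320, a long non-coding RNA, stood at 10.2, 7.39, 9.28 and 7.39 CPM with hairpin B and at 1.28, 1.11, 1.89 and 1.56 CPM with hairpin A, a log2 change of 2.54 ± 0.26 (SE), adjusted p = 4.0e-09. The pseudogene SNX18P20 stood at 2.62, 3.65, 3.68 and 1.59 CPM with hairpin B and at 7.21, 6.61, 8.73 and 8.14 CPM with hairpin A, a log2 change of -1.41 ± 0.30 (SE), adjusted p = 4.2e-04. The part of level and of that library in these shares was not tested beyond the values given. Gene lists were not matched for level, and the part of level in their counts was not tested.

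**Figure D5:**
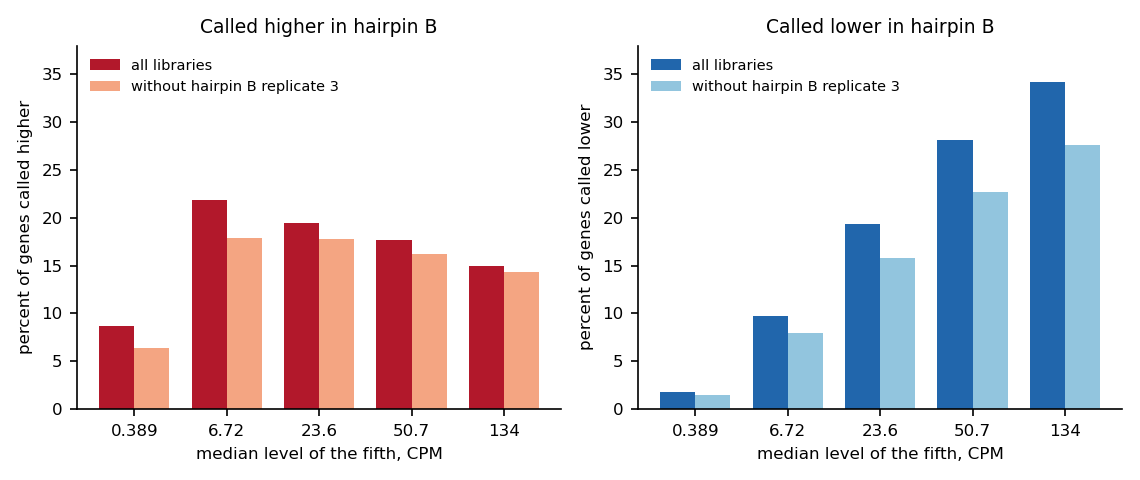
Percent of protein-coding genes that rose or fell with hairpin B against hairpin A in PM, by mean level in 5 equal groups, with all 8 libraries and without hairpin B replicate 3. Falls become more frequent with level in both versions, and the lowest group has the fewest calls.

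The other lists are given by their counts, to be set against 12.7% rises and 13.5% falls over all genes, or 16.5% and 18.6% over protein-coding genes. Of 60 nuclear genes of oxidative phosphorylation 5 rose and 10 fell, with 1 to 3 rises when hairpin B replicate 3 or 4 or hairpin A replicate 1, 3 or 4 was left out and 6 falls without hairpin B replicate 1 or hairpin A replicate 2. Of 31 glycolysis and hypoxia genes 1 rose and 4 fell, of 40 replication-dependent histone genes 2 rose and 1 fell, and of 34 homologous recombination and Fanconi genes 3 rose and 3 fell. Of 26 ATF4 and amino acid stress genes 7 rose and 5 fell, and of 22 endoplasmic reticulum chaperones 5 rose and 3 fell. The ATF4 falls numbered 3 without hairpin B replicate 2 or 3 or hairpin A replicate 4, and the chaperone falls 1 without hairpin B replicate 1 or 3 or hairpin A replicate 1 or 2. Of 22 NRF2 and haem oxygenase genes 3 rose and 6 fell. Of 23 YAP and TEAD targets 9 rose and 3 fell, of 22 collagens 7 rose and 1 fell (median log2 0.35), and of 16 squamous differentiation genes 5 rose and 1 fell (median 0.77). In PE 7 collagens rose and 1 fell (median 0.53), and 5 squamous genes rose and 6 fell (median -0.51). The squamous rises numbered 3 without hairpin B replicate 3 or hairpin A replicate 4 and 2 without hairpin A replicate 3, and the fall did not pass without hairpin B replicate 1, 2 or 3 or hairpin A replicate 1, 2 or 4. Of 21 epithelial junction genes 5 rose and 3 fell, of 13 luminal genes 3 rose and 3 fell, and of 20 genes of activin, follistatin and BMP signalling 5 rose and 3 fell. Of 27 elongation factors and histone chaperones 3 rose and 4 fell, and of 12 BCL2 family regulators 3 rose and 1 fell.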

How the data were processed

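Poly(A) RNA was sequenced from 24 libraries, of which the 8 of PM with hairpin B or hairpin A are described. Per the submitters' processing notes, the authors ran FastQC and Trim Galore 0.4.0, aligned with HISAT2 2.2.1 against GRCh38, and produced the deposited gene counts by featureCounts. Per the labels' protocols the library kit was directional. Neither the gene annotation, the strandedness of counting nor the handling of multi-mapped reads is given in the sources used here, so overlapping and near-identical genes are uncertain.

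The deposited counts were whole numbers for 59251 genes, 17236 of them without a count. Names matched RefSeq GRCh38.p14 by current symbol for 57842 genes and by an older symbol for 367, and 1042 were not matched. Library totals lay between 4.14 and 93.3 M counts. Replicates of a PM hairpin differed by far more than sampling noise (chi-square per degree of freedom 7.57 to 35.6), so none was counted as a repeat of another.

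The filter filterByExpr over the 6 groups left 20820 genes. All 24 libraries entered a single model with a mean for each group (edgeR 4.0.16, R 4.3.3; TMM, robust quasi-likelihood fit and test, two-sided, Benjamini-Hochberg adjusted p under 0.05 within each contrast), with contrasts hairpin B minus hairpin A in PM, the same in PE, and the difference of both. The median biological coefficient of variation was 18.96%. The SE is approximate, taken from the log2 change and the F statistic. Levels are CPM after TMM with SDs of 4 libraries. The steps were tested on simulated data.

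Same-numbered libraries of hairpin B and hairpin A deviated together from their group means (correlations of 0.138, 0.258, 0.308 and 0.308 in PM and 0.243 to 0.456 in PE). That is a hint of pairing from the data and not from the labels. Replicates 1 and 2 were not cleanly separated. In PE hairpin B replicate 1 gave 0.274 with hairpin A replicate 2 and 0.243 with replicate 1. In PM hairpin B replicate 2 gave 0.167 with hairpin A replicate 1. The main model has no block, and blocked values stand beside a result where they change a call or move a count by over 1.5 times.

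The comparison, the members and the 42 gene lists were chosen with earlier results of these data known. Lists are described by counts and medians without a set test. Some genes stand in several lists, as HSPD1 and MCL1 do, so the lists' counts are not independent. Genes named are CHD1, MYC, the 14 largest rises and 14 largest falls among protein-coding genes past the threshold with at least 5 CPM in a group and no overlap of libraries, up to 5 called members of a list with the largest changes, up to 2 members given as values where they did not pass, and the largest differences between the lines. Genes named outside these rules are given as such or stand beside a marker or caveat. Some genes that these rules name are not reported here. Promoters came from RefSeq GRCh38.p14. The alternatives were DESeq2 1.42.0 size factors and its Wald test, library sizes alone, limma-voom (limma 3.58.1), no filter, 5 CPM or more in 4 libraries, the replicate block, the compared groups alone, a 2-fold minimum and leaving out each library. Leaving out hairpin B replicate 3 with hairpin A replicate 4, and the PE GFP group, was added after seeing the data.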

Additional observations from a re-analysis of the deposited data

Results flagged for a closer look

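A gene's lowest or highest library was set against the other 3 of its PM hairpin group for 278 groups of 4 libraries. These covered 127 of the genes named above and 12 measures of the libraries. CHD1 and MYC, on which the comparison was chosen, were left out. The lowest or highest library stood apart by more than the critical value of Dixon's test in 21, against about 1 in 20 groups by chance. In hairpin B replicate 1 the value was 985 CPM for FASN. In hairpin B replicate 2 the values were 0.539 CPM for PRR15L, 0.254 CPM for SLCO5A1 and 3.62 CPM for LY6D. In hairpin B replicate 4 the values were 89.8 CPM for DNAJB1, 81.5 CPM for ZMAT3, 12.7 CPM for KRT16 and 0.647 CPM for TEK. In hairpin A replicate 1 the values were 47.5 CPM for MAX and 1.54 CPM for MYLK. In hairpin A replicate 2 the values were 34.9 CPM for CCND2 and 61.0 CPM for DICER1. In hairpin A replicate 3 the value was 7.94 CPM for ITGA10. In hairpin A replicate 4 the values were 4.14 CPM for SLCO5A1, 48.7 CPM for MTX2, 198 CPM for NAT10, 741 CPM for RPL12, 746 CPM for HSPA1A, 230.4 CPM for AREG, 18.7 CPM for DUSP6 and 1.79 CPM for IFIT1. These are given as values, and the part of single libraries in a call is stated beside it where it changes the call.

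For 57 of these 127 genes the hairpin B over hairpin A change differed between PM and PE. The test was edgeR's for the difference itself, at an adjusted p under 0.05 over 20820 genes. Part of this count was fixed in advance, because the largest differences between the lines and POLR1B were named by that same test. Over all genes 1044 (5.01%) passed. The named genes were chosen by their values, so their share cannot be set against that one. The log2 difference, PM minus PE, was positive for 37 of the 57 genes. It was 4.81 for KRT14, 4.52 for IL1RL1, 4.48 for S100A8, 4.23 for TP53I11, 4.20 for KRT16, 3.96 for FLRT3, 3.89 for ITGB6, 3.74 for ESRP1, 3.61 for DCN, 3.58 for S100A9, 3.14 for TEK, 2.97 for MUC13 and 2.56 for TNFAIP6. A further set had 2.46 for ALDH3A1, 2.16 for KRT6A, 2.16 for GRAMD1B, 1.90 for TIMP1, 1.87 for ACACB, 1.68 for IL1A, 1.63 for CXCL3, 1.57 for DUSP6 and 1.56 for NOTCH3. Smaller ones were 1.53 for ATP8B2, 1.39 for BTC, 1.35 for IFIT1, 1.33 for CXCL1, 1.24 for EREG, 1.20 for ITGA1, 1.17 for AREG, 1.13 for KRT5 and 0.96 for ID1. The smallest were 0.84 for SNAI2, 0.83 for MCL1, 0.80 for DUSP1, 0.79 for PHLDA1, 0.75 for FSTL1 and 0.68 for MMP14. It was negative for 20, with -3.30 for GRIN2C, -2.77 for BMP6, -2.73 for EEF1A2, -2.70 for LY6D, -2.56 for VIPR1, -2.46 for GDA, -2.45 for SORL1, -2.38 for HBA2, -2.35 for HBA1, -2.03 for SLC16A9, -1.88 for NRARP, -1.80 for SNX18P20, -1.62 for GDF15, -1.29 for RGS16, -0.91 for TGFB2, -0.42 for AGO2, -0.41 for TAP2, -0.40 for FASN, -0.38 for POLR1B and -0.36 for ACLY. No explanation of these differences was tested.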

How the results depend on the processing

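No call in PM, in PE or in the difference between the lines changed direction under the alternatives run (0 opposite calls in each). For PM, the count of called genes was 5468 and ran from 4608 to 5401 when 1 library was left out (2271 to 2621 rises and 2302 to 2793 falls), for PE it was 3451 and ran from 2561 to 3298 (1168 to 1462 rises and 1393 to 1836 falls), and for the difference it was 1044 and ran from 814 to 1151 (490 to 626 higher and 316 to 537 lower in PM). A minimum change of 2-fold left 1031 genes in PM (822 rises and 209 falls), 660 in PE (424 and 236) and 358 differences (264 and 94). With the replicate number as a block, 6308 genes passed in PM, 4338 in PE and 1753 in the difference (971 and 782). The block changed the call of no other named gene than those given above with its value, beside DNAJB6P1 and IL6. The PM count was 5526 with DESeq2 size factors, 5871 with the DESeq2 Wald test, 6339 with limma-voom, 5219 without a filter, 5200 where 5 CPM in 4 libraries was required and 5289 with the compared groups alone. Chosen after seeing the data, leaving out hairpin B replicate 3 with hairpin A replicate 4 gave 4377, and leaving out the PE GFP group gave 5711. Scaling by library sizes alone moved the median log2 change of all genes in PM by 0.055. Genes below about 1 CPM rest on few counts in libraries of 30.6 to 93.3 M. The cause of the differences between settings was not tested.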
